A study of Mus musculus with 4 samples.

Results

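The genes described here are 28 genes of cholesterol synthesis and of its control by SREBP2, measured by RNA sequencing in the line RAW264.7, a mouse line with macrophage properties. They were taken by name from a list of mevalonate and sterol synthesis enzymes, sterol transport genes and the SREBP2 machinery. All 28 were found among the 21523 genes of the deposited table. The 1,5-AG group (2 libraries) had been given 0.5 mM 1,5-anhydroglucitol for 24 h, and the control group (2 libraries) had no treatment. 1,5-anhydroglucitol is a natural polyol that resembles glucose without the hydroxyl group of its anomeric carbon. All 4 libraries come from the same line, kept in DMEM with serum, a source of cholesterol for cells. Serum was not varied between the groups as far as the labels say. No culture time is given for the controls, and nothing says whether the replicates were separate cultures. The p-values set the difference between the groups against the spread of libraries within a group, pooled in part across genes. That spread may be technical variation.

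Cells build cholesterol from acetyl-CoA. The mevalonate steps make isoprenoid units, these are joined into squalene, and squalene is closed and trimmed into sterols in the membrane of the endoplasmic reticulum. When sterols are scarce there, SCAP escorts SREBP2 to the Golgi, where a pair of proteases releases a fragment that switches on most genes of the pathway. When sterols are plentiful, INSIG proteins hold SCAP back and the same genes fall together. Macrophages also take in cholesterol from lipoproteins and export any excess.

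The promoters are shown first because SREBP2 acts there together with the factors NF-Y, which binds CCAAT, and Sp1, which binds GGGCGG. RefSeq windows on build GRCm38.p6 were matched for 24 of the 28 genes (not Fdft1, Fdps, Sqle and Stard4), and the 250 bases before the transcript start were searched on both strands. The stretches below are the last 150 bases before the start, 5′ to 3′ along the gene, for 4 genes whose stretch overlaps no annotated exon. Among the 24 genes, Hmgcs1 alone matched an SREBP element form that was searched. Mvd and Lbr had the smallest p-values of the list, and Mvk holds many CCAAT boxes. The Lbr stretch precedes a start inside the annotated gene. Capitals mark TCACNCCAC (an SREBP element form), CCAAT and GGGCGG, or their reverse complements.
Hmgcs1, chr13:119690201-119690350, plus strand: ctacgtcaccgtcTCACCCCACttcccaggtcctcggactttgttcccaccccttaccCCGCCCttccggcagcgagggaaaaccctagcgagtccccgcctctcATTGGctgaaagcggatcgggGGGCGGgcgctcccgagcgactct
Mvk, chr5:114444119-114444268, plus strand: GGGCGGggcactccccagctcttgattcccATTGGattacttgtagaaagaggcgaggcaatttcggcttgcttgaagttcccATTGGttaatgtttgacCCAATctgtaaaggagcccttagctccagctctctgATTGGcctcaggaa
Mvd, chr8:122443423-122443572, minus strand: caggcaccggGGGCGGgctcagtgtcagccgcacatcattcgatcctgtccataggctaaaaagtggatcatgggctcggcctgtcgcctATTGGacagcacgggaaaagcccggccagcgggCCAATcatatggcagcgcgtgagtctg
Lbr, chr1:181842402-181842551, minus strand: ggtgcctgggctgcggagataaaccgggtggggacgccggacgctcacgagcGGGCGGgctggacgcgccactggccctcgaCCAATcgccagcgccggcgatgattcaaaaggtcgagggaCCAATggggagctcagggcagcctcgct

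CCAAT was present before the start of 20 of the 24 genes (83.3%), against 37.5% of all 27025 genes with a window and 41.2% of the 7819 of them that entered the expression test. The 4 without it were Acat2, Scap, Mbtps1 and Mbtps2, so that of the SREBP2 machinery Srebf2, Insig1 and Insig2 held it and the escort and both proteases did not. GGGCGG was present in 21 of the 24 (87.5%), against 35.4% of all genes and 65.7% of those tested. TCACNCCAC was present in Hmgcs1 alone (4.17%), at position -137 counted from the start, with a CCAAT box nearer to the start at -45, against 1.23% of all genes and 1.29% of those tested. The motifs do not contain one another. These matches describe letters in a short window and say nothing about binding.

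**Figure D1:**
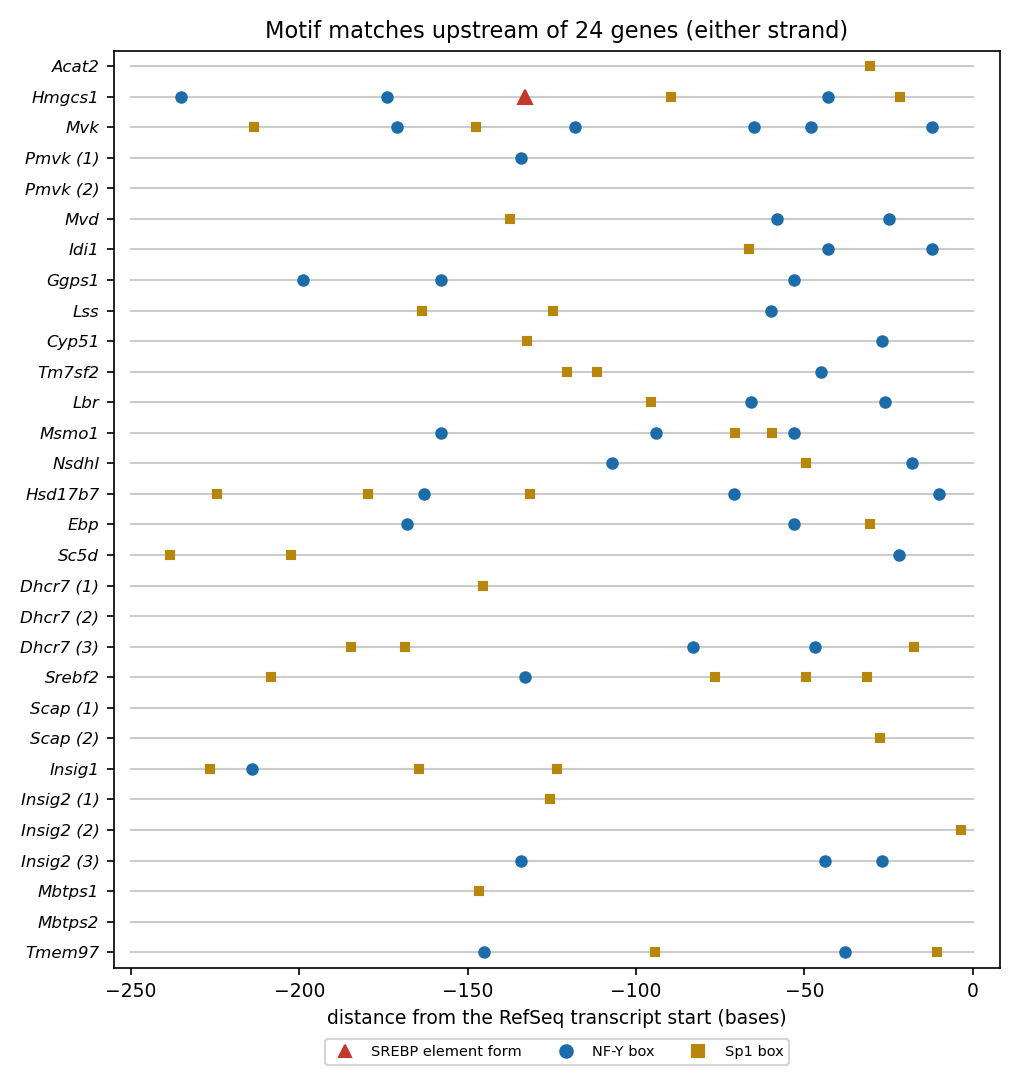
Positions of motif matches in the 250 bases before each RefSeq transcript start, in bases from the start (x axis), for 24 genes in pathway order (rows; numbered rows are several starts of a gene). Triangles mark the SREBP element form, circles the NF-Y box CCAAT and squares the Sp1 box GGGCGG, on either strand; circles appear in rows of 20 genes and the single triangle is in Hmgcs1.

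Levels are given as FPKM, fragments per exon length scaled to the fragments of each library, so that genes can be compared per length. The 4 libraries held 14616556 and 15112965 gene-assigned fragments with 1,5-AG, and 15163807 and 16228673 in control. The 28 genes had between 75 fragments (Tm7sf2) and 5726 fragments (Srebf2) per library, and all 28 passed the filter of a mean of 1 FPKM. Cd68, a macrophage gene, had 472 and 479 FPKM with 1,5-AG and 499.6 and 497.9 FPKM in control. Of 19 marker genes of fibroblasts, lymphocytes, epithelium and liver, and granulocytes, 5 were found in the table, the highest being S100a8 with a mean of 0.308 FPKM. Of 6 macrophage markers, 5 had lower means with 1,5-AG and Lyz2 passed the test (log2 fold change -0.56, limma adjusted p = 0.0169). In bulk samples of a single line, fewer cells expressing a gene and less of its RNA per cell cannot be told apart.

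With 1,5-AG the pathway stayed close to its control level. In a limma fit over 11120 genes on log2(FPKM + 1), 0 of the 28 genes passed an adjusted p of 0.05, where 1.46% of all genes tested did (0.809% higher and 0.647% lower). At an unadjusted p under 0.05 there were 4 of 28 (14.3%), Mvd and Srebf2 lower and Lbr and Insig2 higher, against 18.2% of all genes (9.15% higher and 9.04% lower), so that neither share stands above the background. The direction leaned one way: 22 of 28 fold changes were negative (78.6%), against 50.9% of all genes, with a median log2 fold change of -0.07 against -0.0025. Without 1,5-AG replicate 1 the median was -0.03, and without control replicate 2 it was -0.04, with 19 negative genes in each case. Some other lists leaned the same way, with negative fold changes in 6 of 8 genes of acetyl-CoA and NADPH supply, 9 of 13 of sterol egress and 5 of 6 macrophage markers. Genes that degrade sterol-regulated proteins leaned the other way, with 10 of 13 positive and 7 of 13 above control without overlap. In 11 genes both 1,5-AG libraries lay below both control libraries (39.3%, against 25.4% of all genes), in 3 both lay above (10.7%, against 24.2%), and in 14 the groups overlapped. The members' differences were small, from -0.27 to 0.23 on the log2 scale. No test was made of the list as a whole.

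**Figure D2:**
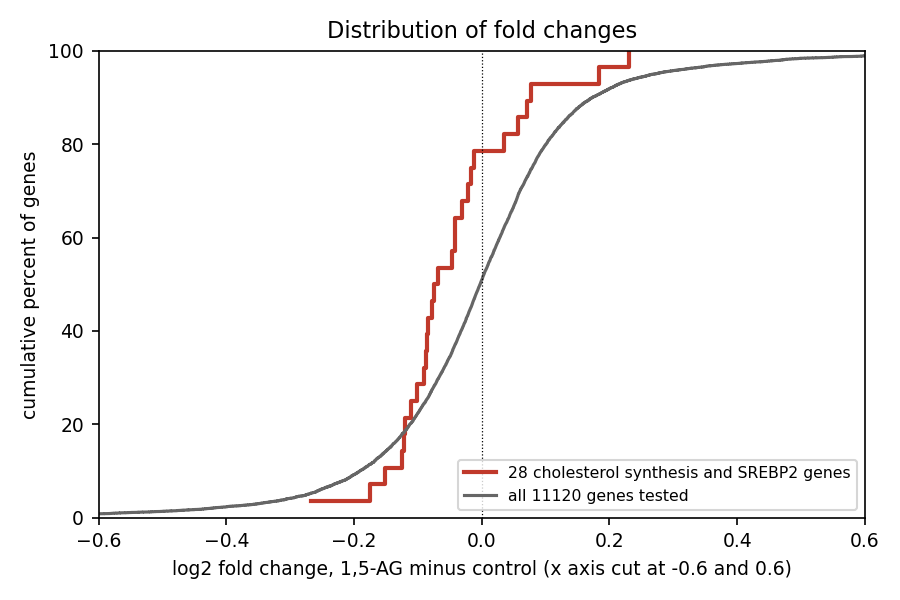
Cumulative percent of genes (y axis) by log2 fold change, 1,5-AG minus control (x axis), for the 28 pathway genes and for all 11120 genes tested. The curve of the pathway genes reaches 78.6% at a fold change of 0, against 50.9% for all genes, and ends at 0.23.

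Summed over the 28 genes, the level was 529.9 and 532.4 FPKM in the 1,5-AG libraries, against 549.9 and 546.2 FPKM in the control libraries. Both 1,5-AG sums lay below both control sums. As a share of all FPKM in each library they came to 166 and 168 per 100000 with 1,5-AG, against 173 and 174 in control. The 6 mevalonate genes summed to 112.8 FPKM in each 1,5-AG library and to 121 and 120 FPKM in control. The 11 sterol ring genes overlapped, at 181 and 189 FPKM with 1,5-AG and 185 and 189 FPKM in control. The SREBP2 machinery summed to 116 and 111 FPKM with 1,5-AG, against 123 and 119 FPKM in control. The 3 condensation genes summed to 18.98 and 19.1 FPKM with 1,5-AG, against 19.4 and 19.9 FPKM in control, without overlap. The summed level of the sterol transport genes ran the other way. It was 101.6 and 100.8 FPKM with 1,5-AG, against 100.6 and 97.9 FPKM in control, without overlap but by a small margin. Most of that sum was Tmem97, at 84.98 and 80.80 FPKM with 1,5-AG and 80.77 and 76.9 FPKM in control. Stard4 alone had a negative log2 fold change (-0.15).

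**Figure D3:**
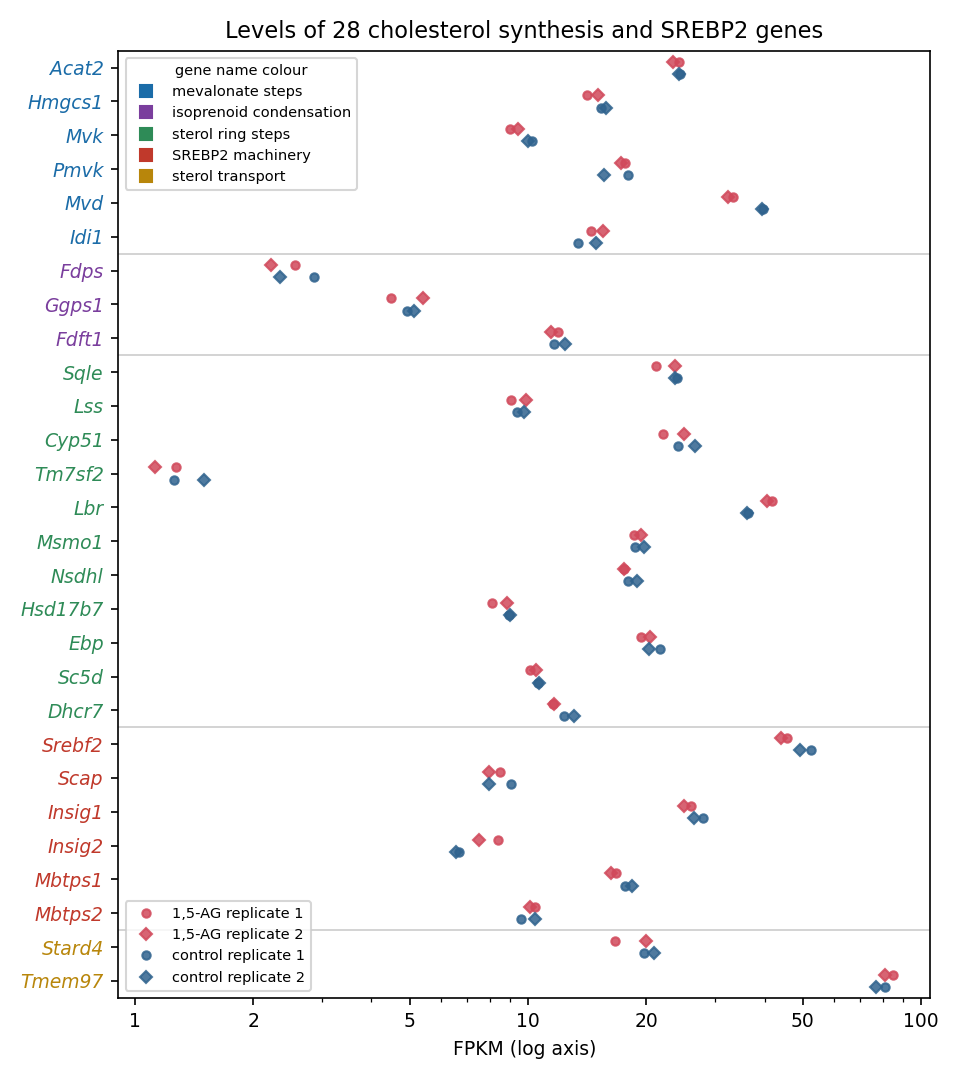
Level of each of the 28 genes in each library (FPKM, log axis), in pathway order from top to bottom, with 1,5-AG libraries in red above control libraries in blue and replicates 1 and 2 as circles and diamonds. Tmem97 lies highest and Tm7sf2 lowest, and the 2 groups sit close together in every row; clear separations include those of Mvd, Lbr, Srebf2 and Insig2.

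Among the mevalonate steps, Mvd was the gene with the smallest p-value of all 28. It encodes the decarboxylase that makes isopentenyl diphosphate, the building block of all isoprenoids, and lies on chromosome 8 (122433601 to 122443422, mm10). Mvd had 33.3 and 32.2 FPKM in the 1,5-AG libraries, against 39.7 and 39.5 FPKM in the control libraries (means 32.7 ± 0.748 and 39.6 ± 0.179, SD, n = 2 each). The groups did not overlap, and each pair of replicates differed by less than the gap between groups. Its log2 fold change was -0.27 (SE 0.04, 95% interval -0.37 to -0.16), which is 17.3% less in FPKM, with a limma adjusted p of 0.0581. This p was just above the threshold, and Mvd passed with 0.0179 among the 9439 protein coding genes alone (4.36% of genes called) and with 0.03004 among genes averaging 5 FPKM or more (4.8% called). With any 1 library left out its adjusted p was between 0.177 and 0.238.

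The enzymes before Mvd gave smaller differences. Mvk, mevalonate kinase, had 9.003 and 9.42 FPKM with 1,5-AG, against 10.3 and 10.0 FPKM in control, and the groups did not overlap (log2 fold change -0.13, SE 0.05, limma adjusted p = 0.304). Hmgcs1, the cytosolic HMG-CoA synthase that commits acetyl units to the pathway, had 14.1 and 15.1 FPKM with 1,5-AG, against 15.3 and 15.8 FPKM in control. These groups also did not overlap, although the nearest libraries were 15.1 and 15.3 FPKM (-0.09, limma adjusted p = 0.458). With 1 library left out, the fold change of Hmgcs1 was between -0.13 and -0.045. Acat2, the thiolase that joins the first acetyl units, had 24.2 and 23.4 FPKM with 1,5-AG, against 24.4 and 24.2 FPKM in control (-0.03, a gap within the rounding), and 65.6% of its transcript is shared at 95% identity or more with Acat3, listed at under 1 FPKM. Pmvk, which adds the next phosphate, and Idi1, the isomerase that follows Mvd, had overlapping groups and positive fold changes of 0.06 and 0.08. The sign of Pmvk turned without control replicate 2.

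Each of the isoprenoid condensation genes had overlapping groups, although their summed levels did not overlap. Fdft1, the squalene synthase that directs isoprenoids into sterols, had 11.9 and 11.4 FPKM with 1,5-AG, against 11.7 and 12.4 FPKM in control (-0.04). Ggps1, which makes the lipid used in geranylgeranylation, had 4.49 and 5.41 FPKM with 1,5-AG, against 4.92 and 5.13 FPKM in control (-0.02). Fdft1 shares 774 exon bases with Ctsb, a cathepsin gene on the opposite strand at 309 and 306 FPKM with 1,5-AG and 277 and 279 FPKM in control. The library kit marks strand, but whether the counting used it is not stated, so the level of Fdft1 is uncertain.

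Fdps, the farnesyl diphosphate synthase, was listed below Idi1, Fdft1 and Ggps1, at 2.55 and 2.22 FPKM with 1,5-AG and 2.85 and 2.34 FPKM in control. Its longest coding transcript of 1382 bases shares 91.4% of its length, at 95% identity or more, with 6 other annotated genes. One of them, the processed pseudogene Gm3571, matches 1062 bases at 98.9% identity and was listed at 18.1 and 19.9 FPKM with 1,5-AG, against 22.1 and 20.99 FPKM in control. The pseudogene's groups did not overlap (-0.18, SE 0.06, limma adjusted p = 0.243), while those of Fdps did (-0.09, SE 0.11, limma adjusted p = 0.750). Fdps also shares 1124 exon bases (26.7% of its exon length) with Gm43738, an annotated gene on the same strand. Gm43738 was listed at 0 and 0.0251 FPKM with 1,5-AG and at 0 FPKM in both control libraries. How reads that match several copies or lie in shared exons were assigned is not stated in the sources at hand. Neither the value of Fdps nor that of Gm3571 can therefore be read as the level of Fdps messenger RNA. The fragments of Fdps came out whole in all 4 libraries.

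Of the 11 sterol ring genes, Lbr was the one with a positive fold change. Lbr encodes the lamin B receptor, a protein of the inner nuclear membrane that anchors chromatin and is also a sterol reductase. It had 41.8 and 40.6 FPKM in the 1,5-AG libraries, against 36.2 and 36.1 FPKM in the control libraries (means 41.2 ± 0.853 and 36.2 ± 0.135, SD, n = 2 each). The groups did not overlap, with a log2 fold change of 0.18 (SE 0.04, 95% interval 0.08 to 0.28), 13.96% more in FPKM, and a limma adjusted p of 0.109. Lbr lies on chromosome 1 (181815335 to 181843046, mm10). Tm7sf2, which catalyses the same reduction in the endoplasmic reticulum, was the lowest gene of the list, with 1.27 and 1.13 FPKM with 1,5-AG and 1.26 and 1.497 FPKM in control (-0.11, SE 0.13). The level of Lbr was 32.8 and 36.0 times that of Tm7sf2 with 1,5-AG, and 28.8 and 24.1 times in control, a ratio formed after the values were seen. Tm7sf2 shares exon bases with Vps51 on the same strand.

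The other sterol enzymes had negative fold changes between -0.12 and -0.01, and none reached an unadjusted p of 0.05. Dhcr7, the reductase of the last step of a main route to cholesterol, had 11.6 and 11.7 FPKM with 1,5-AG, against 12.4 and 13.1 FPKM in control (-0.12, SE 0.05, limma adjusted p = 0.315). The groups of Dhcr7 did not overlap, nor did those of Nsdhl, Hsd17b7 and Sc5d, with fold changes of -0.07, -0.08 and -0.05. Nsdhl and Hsd17b7 act with Msmo1 (-0.02) in removing methyl groups from the sterol ring, and Sc5d introduces a double bond. Sqle, the epoxidase that acts on squalene and a known control point, had 21.2 and 23.7 FPKM with 1,5-AG, against 24.0 and 23.6 FPKM in control (-0.08, SE 0.06, limma adjusted p = 0.549). Here 1,5-AG replicate 1 was the low library and replicate 2 lay among the controls. Cyp51, the demethylase of lanosterol, had overlapping groups, with 22.1 and 24.98 FPKM with 1,5-AG and 24.1 and 26.6 FPKM in control (-0.10). With 1 library left out, the fold change of Cyp51 was between -0.19 and -0.018 and that of Sqle between -0.16 and -0.0079. Lss, which closes squalene epoxide into lanosterol, had -0.01 and Ebp, an isomerase, -0.07, both with overlapping groups.

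**Figure D4:**
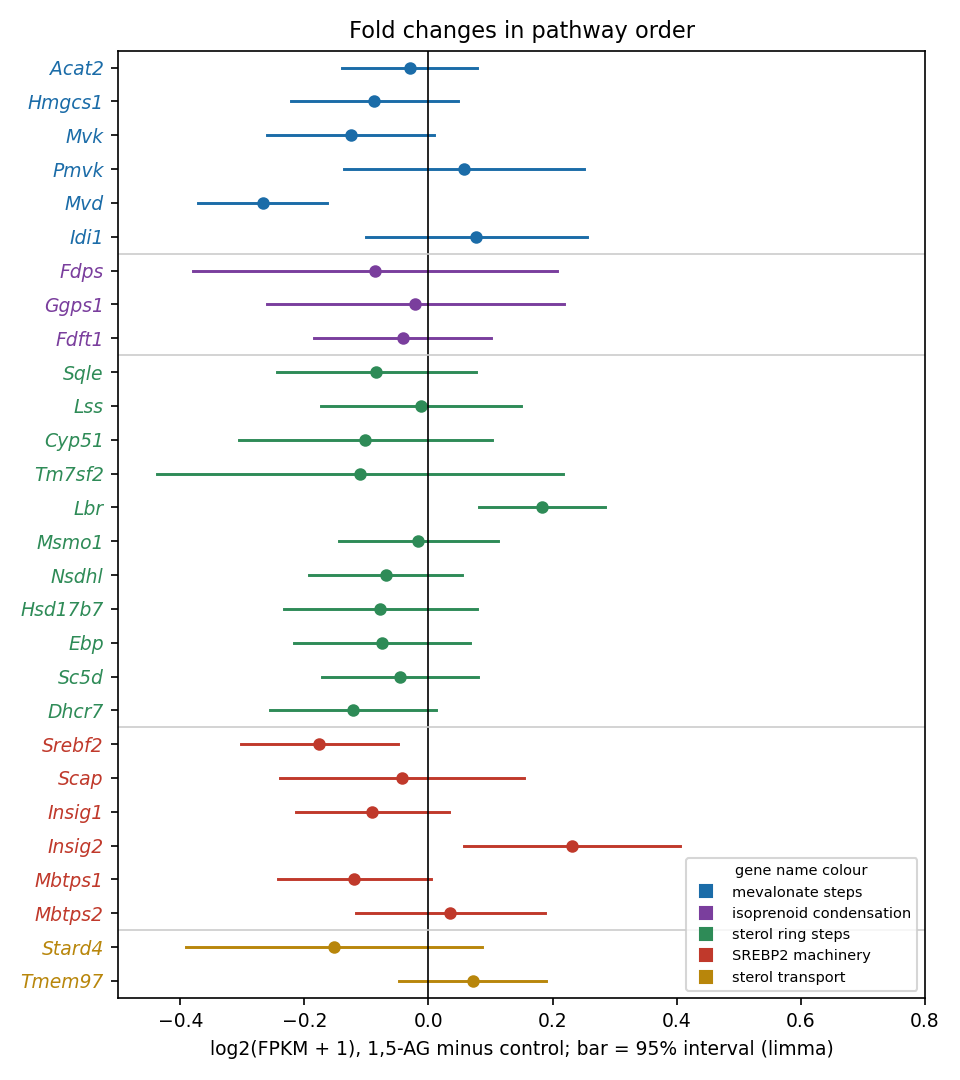
Log2 fold change of each gene on log2(FPKM + 1), 1,5-AG minus control (points), with the 95% interval of the limma fit (bars), in pathway order from top to bottom and coloured by role. The intervals of Mvd and Srebf2 lie below 0 and those of Lbr and Insig2 above 0, before adjustment for the number of genes tested; the other 24 intervals include 0.

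In the SREBP2 machinery, Srebf2 and Insig2 had the smallest p-values. Srebf2, which encodes SREBP2, had 45.6 and 44.1 FPKM in the 1,5-AG libraries, against 52.5 and 49.1 FPKM in the control libraries (means 44.9 ± 1.09 and 50.8 ± 2.41, SD, n = 2 each). The groups did not overlap, with a log2 fold change of -0.18 (SE 0.05, 95% interval -0.30 to -0.05), 11.7% less in FPKM, and a limma adjusted p of 0.168. Srebf2 lies on chromosome 15 (82147181 to 82205379, mm10). Insig2, an anchor that retains SCAP and is not itself a strong SREBP2 target, had 8.37 and 7.53 FPKM with 1,5-AG, against 6.68 and 6.55 FPKM in control (means 7.95 ± 0.599 and 6.62 ± 0.0968, SD, n = 2 each). Both 1,5-AG libraries were higher, with a log2 fold change of 0.23 (SE 0.07, 95% interval 0.06 to 0.41), 20.2% more in FPKM, and a limma adjusted p of 0.178.

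Insig1, the anchor that SREBP2 induces in a feedback loop, ran the other way from Insig2, with 25.97 and 24.97 FPKM with 1,5-AG, against 27.8 and 26.5 FPKM in control (-0.09, SE 0.05, limma adjusted p = 0.404). The ratio of Insig1 to Insig2 was 3.10 and 3.32 with 1,5-AG, against 4.17 and 4.05 in control, so that the groups did not overlap. This ratio was formed after the values were seen and was not tested. Mbtps1, the Golgi protease that makes the first cut in SREBP2, had 16.7 and 16.2 FPKM with 1,5-AG, against 17.6 and 18.4 FPKM in control (-0.12, SE 0.05, limma adjusted p = 0.289). Mbtps2, the protease of the second cut, had 10.4 and 10.1 FPKM with 1,5-AG and 9.59 and 10.4 FPKM in control (0.04). Mbtps2 shares 28.4% of its exon length with Yy2 on the same strand, and Scap, the escort, overlapped between the groups (-0.04).

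Both sterol transport genes had adjusted p-values far from the threshold. Tmem97, a sterol-regulated membrane protein and the most abundant gene of the list, had 84.98 and 80.80 FPKM with 1,5-AG, against 80.77 and 76.9 FPKM in control (0.07, SE 0.05, limma adjusted p = 0.489). The groups of Tmem97 were separate by a very small margin. Stard4, a cytosolic sterol carrier, had 16.6 and 19.98 FPKM with 1,5-AG, against 19.8 and 20.96 FPKM in control (-0.15, SE 0.09, limma adjusted p = 0.465). In Stard4, 1,5-AG replicate 1 was low and replicate 2 lay among the controls, as in Sqle. The fold change of Stard4 was between -0.28 and -0.026 with 1 library left out.

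A count-based fit gave a few calls. With voom and limma on the fragments recovered from the FPKM values, 3 of the 28 genes passed (10.7%), against 8.31% of all genes (4.66% lower and 3.65% higher): Mvd with an adjusted p of 0.00760, Srebf2 with 0.0112 and Lbr with 0.0122. Their log2 fold changes were -0.27, -0.18 and 0.19. Insig2 did not pass (0.26, voom adjusted p = 0.107).

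Lists of neighbouring genes, chosen with earlier results of these data known, gave the setting of these values. Each is set beside the 1.46% called among all genes, which is not a test of the list. Of 13 tested genes of sterol egress, esters and oxysterols, 2 rose and 0 fell, with a median of -0.07. Abca1, which exports cholesterol to apolipoproteins, had 19.4 and 18.5 FPKM with 1,5-AG, against 3.82 and 4.70 FPKM in control (1.93, limma adjusted p = 0.00953). Abcg1, a second exporter, had 63.2 and 59.3 FPKM with 1,5-AG, against 41.9 and 40.3 FPKM in control (0.56, limma adjusted p = 0.0221). These exporters were far outside the range of the synthesis genes, as the plot of gene lists shows.

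Of 10 genes of SREBP1 and fatty acid synthesis, 2 rose and 1 fell, with a median of 0.10. Scd1, a fatty acid desaturase, had 70.1 and 73.8 FPKM with 1,5-AG, against 51.5 and 51.4 FPKM in control (0.48, limma adjusted p = 0.0221). Acaca, the acetyl-CoA carboxylase, rose by 0.36 (limma adjusted p = 0.0461), and Fads1, a desaturase of polyunsaturated fatty acids, fell by 0.31 (limma adjusted p = 0.0425). Of 8 genes that supply acetyl-CoA and NADPH, Idh1, the cytosolic isocitrate dehydrogenase, rose (169 and 165 FPKM with 1,5-AG, against 117 and 123 FPKM in control, 0.47, limma adjusted p = 0.0209). The other 7 did not pass, and the median of the list was -0.07.

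The lists nearest to the pathway's branches and turnover held no calls. An unadjusted p under 0.05 was reached by 18.2% of all genes. In the lists above it was reached by 7 of the 13 egress genes, 4 higher and 3 lower. The same held for 6 of the 10 fatty acid genes (4 higher, 2 lower) and 3 of the 8 supply genes (1 higher, 2 lower). Of 13 genes that degrade sterol-regulated proteins of the endoplasmic reticulum, 0 passed the limma test (1 at an unadjusted p under 0.05), with a median of 0.06. Its smallest p was that of Rnf145, a ubiquitin ligase of that membrane, with 13.4 and 13.2 FPKM with 1,5-AG, against 11.04 and 10.7 FPKM in control (0.27, limma adjusted p = 0.0807). Of 14 genes that use isoprenoids for dolichol, ubiquinone and prenylated proteins, 0 passed (2 at an unadjusted p under 0.05), with a median of 0.02. Its smallest p was that of Nus1, a subunit of the dolichol-making enzyme (0.15, limma adjusted p = 0.174). Of 5 microsomal electron donors, 0 passed (2 at an unadjusted p under 0.05), with a median of 0.01 and the smallest p in Cyb5r3, a cytochrome reductase (-0.13, limma adjusted p = 0.249).

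**Figure D5:**
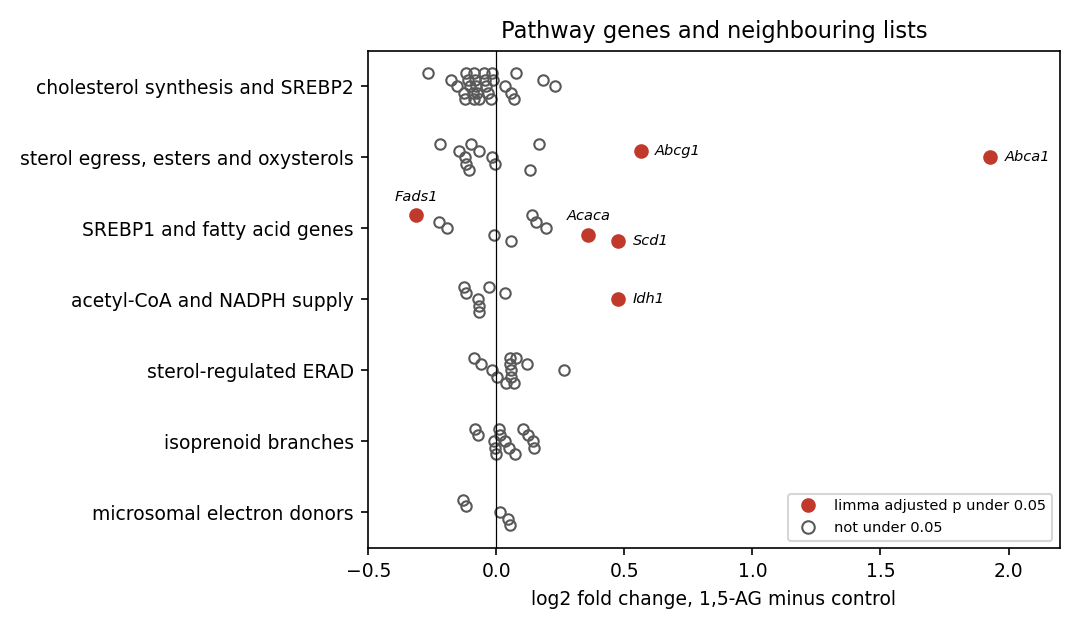
Log2 fold change, 1,5-AG minus control (x axis), of each tested gene in the cholesterol synthesis and SREBP2 list and in 6 neighbouring lists (rows; points are spread vertically for view only). Filled red points had a limma adjusted p under 0.05 and are named; the top row holds none, and Abca1 lies at 1.93.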

How the data were processed

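The authors deposited FPKM values for 21523 Ensembl genes in 4 libraries. The submitters' processing notes name HTSeq, Cufflinks, HISAT2 and Trimmomatic and the build mm10, without roles or versions. The annotation and the strand setting are not stated. GENCODE M21 gave symbols, coordinates and merged exon lengths for 21508 identifiers. FPKM times exon length came out as whole fragments (within 0.02) in all 4 libraries for 99.4% of these, and for 27 of the 28 members (not Fdft1), which gave the depths. At these depths, 3 fragments in 2 kb of exon correspond to 0.0924 to 0.103 FPKM, covering counting error only. FPKM is a share of each library, so changes in abundant genes shift all others.

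Groups were compared by limma (3.58.1, under R 4.3.3) with a variance trend, applied to log2(FPKM + 1) of 11120 genes with a mean of at least 1 FPKM. Of rows sharing a symbol, the most abundant was kept (1 left out). Tests were two-sided, adjusted by the Benjamini-Hochberg method over every gene in the fit, at 0.05. Fold changes are 1,5-AG minus control and are understated for low genes. An exact permutation test at this size cannot give a p under 0.333. The fit was tested on simulated data. Near-identical copies were sought with BLAST 2.17.0. All 28 members are named, as are the called genes of each neighbouring list or, with none called, the gene with the smallest p. Members, lists and tests were chosen with earlier results of these data known, and motifs, copies and ratios were examined after the values were seen.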

Additional observations from a re-analysis of the deposited data

How the results depend on the processing

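Across 12 alternatives the median log2 fold change of the 28 genes stayed negative, between -0.08 and -0.03, and 19 to 22 members were negative. With 1 library left out it was between -0.069 and -0.032 (-0.032 without 1,5-AG replicate 1, -0.041 without control replicate 2). The number of members called, 0, was 1 (Mvd) among genes averaging 5 FPKM or more and among protein coding genes only, and 3 with voom. Over all genes the 162 calls became 0 without a filter (2628 at an unadjusted p under 0.05), 360 among genes averaging 5 FPKM or more, 5 with no variance trend, 412 among protein coding genes, 924 with voom, 310 with the replicate block and 2 to 10 with 1 library left out, where the lone library is assumed to vary like the other group. Deviations of same-numbered libraries correlated at 0.0124 and the labels do not pair them; the block called 0 members. Some signs near 0 turned: Ggps1 under quantile normalization (0.0017), and with 1 library left out Pmvk (-0.040 to 0.16), Fdps (-0.19 to 0.016), Ggps1 (-0.13 to 0.090), Fdft1 (-0.083 to 0.00090), Lss (-0.070 to 0.045), Msmo1 (-0.050 to 0.018), Scap (-0.13 to 0.042) and Mbtps2 (-0.018 to 0.089). Of the other member values, 316 kept sign and side of the threshold and 5 passed it. Fold changes that kept their sign could still move widely with 1 library left out (Cyp51 -0.19 to -0.018, Stard4 -0.28 to -0.026, Hmgcs1 -0.13 to -0.045). Mvd, Srebf2, Lbr and Insig2 kept their sign in all 12. Fdps, Ggps1 and Tm7sf2 average under 5 FPKM and dropped out under that filter. For each of these shifts the cause was not tested. Depth limits Tm7sf2, with 75 fragments in a library.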

Other observations

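Annotated pseudogene copies of the pathway genes other than Gm3571 were, where listed, under 5 FPKM in every library. The processed pseudogene Gm13502, which matches 684 bases of Idi1 at up to 100% identity, had 3.30 and 3.10 FPKM with 1,5-AG and 2.70 and 3.51 FPKM in control. Gm5873, a copy of Fdps with 96.7% identity, had 3.40 and 2.79 FPKM with 1,5-AG and 2.78 and 2.66 FPKM in control. Fdps itself was listed at a similar level, 2.55 and 2.22 FPKM with 1,5-AG and 2.85 and 2.34 FPKM in control. Gm37784, which matches 189 bases of Insig1 at 98.9% identity, had 3.62 and 4.90 FPKM with 1,5-AG and 4.19 and 3.59 FPKM in control. Gm5809, a copy of part of Tmem97, had 1.29 and 1.25 FPKM with 1,5-AG and 0.249 and 1.28 FPKM in control, where control replicate 1 was the low library. Of the 28 genes, 18 shared no stretch with another annotated gene at this identity, among them Mvd, Lbr, Srebf2 and Insig2.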
